A study of Mus musculus with 7 samples.

Results

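The keratins *Krt8*, *Krt18*, *Krt20* and *Krt23* and the small proline-rich protein gene *Sprr1a* were followed in liver RNA taken 8 h after carbon tetrachloride (CCl4). The genes were picked by symbol, each symbol matched 1 row, and they make up 5 of the 14851 genes in the deposited table. They were chosen with results of the genotype comparison known, so the genotype differences of these 5 genes are given as a description and no p-value is read for them. In the FL group (4 mice, *Albumin-Cre; p53 FL/FL*), Cre under the *Albumin* promoter removes floxed *Trp53* from hepatocytes. The WT group (3 mice, *Albumin-Cre; p53 WT/WT*) has the same Cre with *Trp53* intact. All mice were C57BL/6J males of about 70 days, and all had received a single morning injection of CCl4 into the peritoneum (a 20% solution in corn oil, at 1 mL/kg). No untreated liver was analysed here, so no value below says what CCl4 itself did. Which other cells of the liver keep *Trp53* was not measured here. Some mice of the study also carried a red fluorescent reporter allele, without it being stated which. The source names of the WT livers share 1 prefix that no FL liver has. What the prefix marks is not stated, and anything it marks cannot be told apart from genotype.

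Keratins form the intermediate filaments of epithelial cells, and each filament pairs an acidic type I keratin with a basic type II keratin. The adult hepatocyte builds its filaments from K8 (type II) and K18 (type I), while bile duct cells add K7 and K19. Loss or mutation of K8 or K18 makes the liver fragile under toxins, and both proteins accumulate in the Mallory-Denk bodies of chronic liver injury. K20 is a type I keratin of gut epithelium and urothelium, K23 is a small type I keratin whose role is poorly known, and SPRR1A is a proline-rich protein that transglutaminases cross-link into the cornified envelope of skin and that is also induced by injury in heart and nerve.

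The values are normalised read counts, meaning reads per gene divided by a scaling factor of each library. The spacing of low values gave an estimated 11.9 to 19.5 M reads on genes per FL liver and 15.4 to 17.1 M per WT liver. *Trp53* (chromosome 11, 69580359 to 69591873) was lower in every FL liver (131, 130, 217 and 110 normalised counts, replicates 1 to 4) than in every WT liver (876, 688 and 831, replicates 1 to 3), as the labels state (log2 fold change -2.47, standard error 0.23, limma adjusted p = 0.0447; exact two-sided permutation p = 0.029, the smallest that 35 splits of the livers allow). The adjusted call was lost in 6 of 7 fits without 1 liver, while the direction was kept in all of them. WT replicate 2 and FL replicate 3 stood apart from the other livers on the first principal component (82.0 and 29.2, against -25.6 to -19.1), which held 66.7% of the variance. The fold changes of the 5 genes, the list medians and the correlations that rest on these livers are given with and without both. Fold changes of other single genes cover all 7 livers unless stated. Hepatocyte genes were abundant in every liver, with *Alb* between 956556 and 1511638, and of 10 hepatocyte markers, all tested, 0 passed the adjusted threshold by limma, with 1 lower (*Cyp3a11*) and 2 higher (*Apoa1* and *Ttr*) in FL at an unadjusted p under 0.05 and a median log2 fold change of 0.24 (0.16 without FL replicate 3 and WT replicate 2). The limma fits covered the 12545 genes whose mean reached 10, on the scale log2(normalised count + 1), and log2 fold changes are positive where FL livers were higher.

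At 8 h after CCl4 the 5 genes fell into 2 patterns. *Krt8* and *Krt18* were among the most abundant transcripts of the liver and differed more between livers of 1 genotype than between the genotypes, whereas *Sprr1a*, *Krt23* and *Krt20* had lower means in FL livers. *Sprr1a* and *Krt23* were lower in every FL liver than in every WT liver, as were 1.98% of all genes tested (2.77% had every FL liver above every WT liver, 4.76% in either direction), and *Krt20* overlapped between the genotypes in a single FL liver. By limma 0 of the 5 genes had an adjusted p under 0.05 and 3 had an unadjusted p under 0.05 (*Krt20*, *Krt23* and *Sprr1a*, all lower in FL). Of all genes tested, 0.0159% passed the adjusted threshold while 3.2% had an unadjusted p under 0.05, 1.6% lower in FL and 1.59% higher. Since the genes were chosen with this contrast known, nothing is read from these counts.

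**Figure D1:**
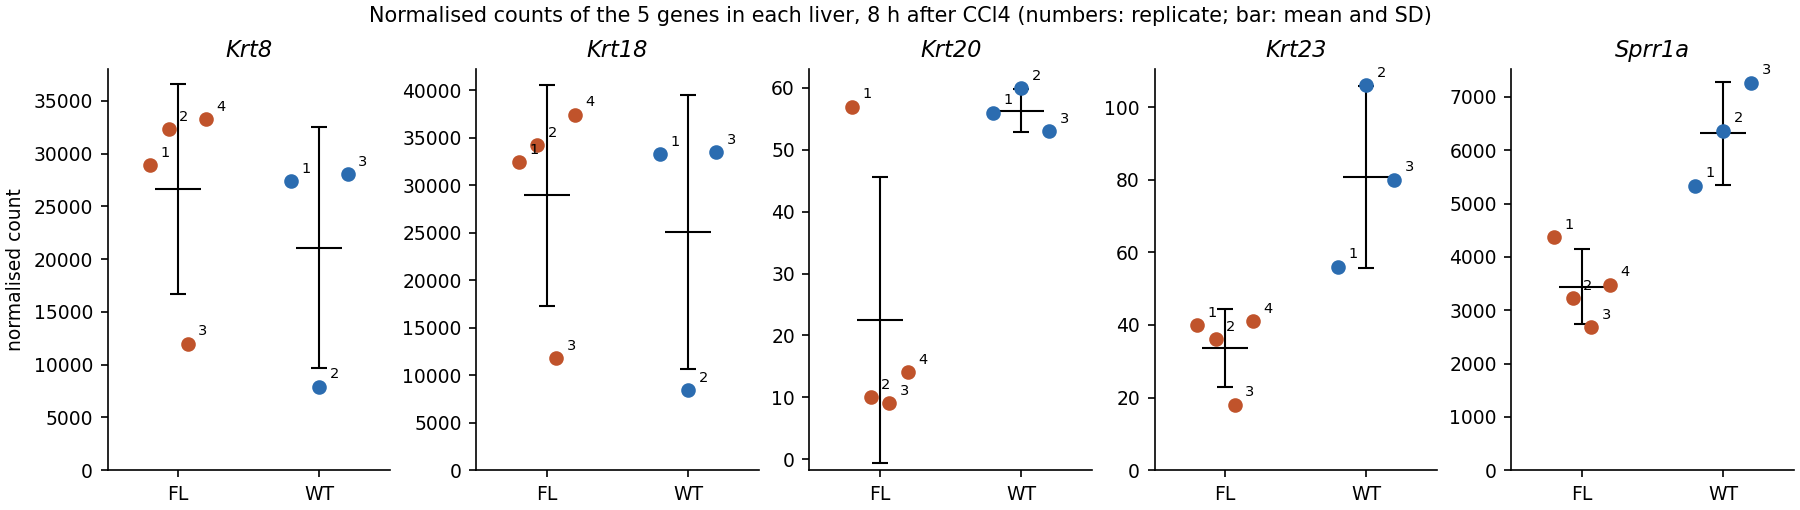
Normalised count (vertical axis, 1 panel per gene) in 4 FL and 3 WT livers, where points are livers labelled with their replicate number and bars give the mean and SD. *Krt8* and *Krt18* were lowest in FL replicate 3 and WT replicate 2, *Sprr1a* and *Krt23* had no FL liver as high as the lowest WT liver (5333 and 56), and *Krt20* in FL replicate 1 (57) lay among the WT livers.

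Compared per kilobase of annotated exon, the order of mean levels was *Krt18* (18986 normalised counts per kb), *Krt8* (12389), *Sprr1a* (5798), *Krt23* (34.4) and *Krt20* (19.2). These levels ranked 41, 60, 114, 8171 and 9455 among the genes of the table. *Krt18* exceeded *Krt8* per kb in all 7 livers. *Krt8* exceeded *Sprr1a* in 6 of them, the exception being WT replicate 2, with 4035 per kb of *Krt8* and 7895 of *Sprr1a*. *Krt23* and *Krt20* could not be ordered in every liver, since FL replicate 1 had 25.6 per kb of *Krt23* and 29.6 of *Krt20*. *Sprr1a*, best known from skin, was thus an abundant transcript in the livers of both genotypes, whereas *Krt20* and *Krt23* were rare.

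*Krt8*, the type II partner in hepatocyte filaments (GRCm38 chromosome 15, 101996698 to 102004482, minus strand), stood at 28912, 32322, 11994 and 33280 normalised counts in FL livers and at 27359, 7901 and 28041 in WT livers, in replicate order here and below, where errors of means are SDs over 4 FL or 3 WT livers. The 2 low livers, FL replicate 3 and WT replicate 2, belong to different genotypes, and the other 5 lay close together. The means were 26627 ± 9934 (SD, n = 4) in FL and 21100 ± 11436 (SD, n = 3) in WT livers, giving a log2 fold change of 0.44 ± 0.53 (standard error). *Krt18*, its type I partner, lies 23.7 kb away on the plus strand (102028180 to 102032027). It had 32421, 34210, 11763 and 37436 in FL and 33265, 8405 and 33480 in WT livers, so that the same 2 livers were low and the groups overlapped. Its means were 28958 ± 11649 in FL and 25050 ± 14415 in WT livers, giving a log2 fold change of 0.33 ± 0.58 (standard error).

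The direction of this difference depended on 1 liver in both genes. Without WT replicate 2 the log2 fold changes were -0.16 for *Krt8* and -0.34 for *Krt18*, without FL replicate 3 they were 0.79 and 0.72, and without both livers they were 0.18 and 0.05. With both livers left out, *Krt8* ranged from 28912 to 33280 in FL and from 27359 to 28041 in WT livers, and *Krt18* from 32421 to 37436 and from 33265 to 33480. The remaining FL livers thus all lay above the remaining WT livers for *Krt8*, whereas those for *Krt18* overlapped. Over all 7 livers the groups overlapped in both genes, and the log2 fold changes were smaller than their standard errors.

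The size of the drop within a genotype was nearly equal in both partners. FL replicate 3 had 0.371 of the median of the other FL livers for *Krt8* and 0.344 for *Krt18*, and WT replicate 2 had 0.285 and 0.252 of the median of the other WT livers. As many as 28.8% of all genes tested were lowest of their genotype in both of these livers, but in 0.98% (123 genes) both livers were under 0.5 of every other liver of their genotype, and *Krt8* and *Krt18* are among these 123. The ratio of *Krt8* to *Krt18* counts meanwhile stayed between 0.822 (WT replicate 1) and 1.02 (FL replicate 3), at 0.936 ± 0.0612 in FL and 0.867 ± 0.064 in WT livers, so the pair varied over 4.21-fold and 4.45-fold among livers while its ratio changed little. *Krt8* is the less certain of the pair, since 30.4% of its 36-base stretches (the length of the reads) also occur in the transcript of its pseudogene *Krt8-ps*, against 6.42% of *Krt18* stretches shared with other genes. *Krt20*, *Krt23* and *Sprr1a* share 0 such stretches with the transcripts of other genes.

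**Figure D2:**
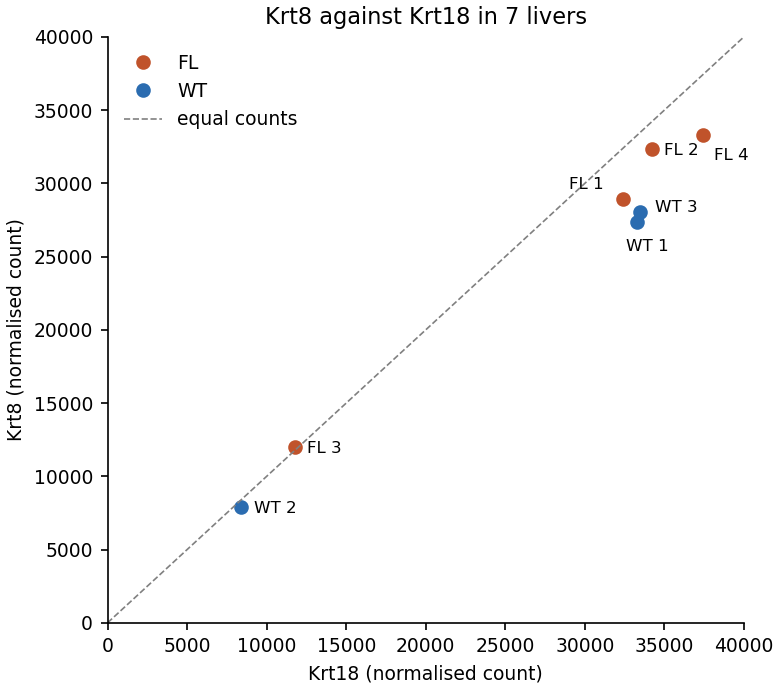
*Krt8* against *Krt18* (normalised count on both axes) in 7 livers, coloured by genotype, with a dashed line of equal counts. FL replicate 3 and WT replicate 2 lie near the line at 11763 and 8405 normalised counts of *Krt18*, and the other 5 livers lie together from 32421 upwards, below the line.

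*Krt23* (chromosome 11, 99477974 to 99493137, minus strand) stood at 40, 36, 18 and 41 normalised counts in FL livers and at 56, 106 and 80 in WT livers. All FL livers lay below all WT livers. The FL mean was 33.8 ± 10.7 and the WT mean 80.7 ± 25.0, so FL livers had 41.8% of the WT level, or -1.25 ± 0.35 (standard error) on the log2 scale. FL replicate 3 was the lowest FL liver and WT replicate 2 the highest WT liver, and without both of them the log2 fold change was -0.77 with the remaining livers still apart. At this depth 18 normalised counts are about 22 reads, with a 95% Poisson interval of 11.2 to 27.0 normalised counts. The 56 of WT replicate 1 have an interval of 42.7 to 71.4. The intervals of FL replicates 1, 2 and 4 (28.5 to 54.8, 23.5 to 52.8 and 29.1 to 56.4) overlap that of WT replicate 1. No FL interval reaches those of WT replicates 2 and 3 (87.8 to 128 and 64 to 98.8). All these intervals cover counting error only.

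*Krt20*, which lies 39.8 kb from *Krt23* in the type I keratin cluster (99428403 to 99438150, minus strand), had 57, 10, 9 and 14 normalised counts in FL and 56, 60 and 53 in WT livers. FL replicate 1 was as high as the WT livers, and the other FL livers were 3 or more times below every WT liver. The means were 22.5 ± 23.1 in FL and 56.3 ± 3.51 in WT livers, giving a log2 fold change of -1.70 ± 0.59 (standard error). It was -2.28 without FL replicate 1 and -1.39 without both FL replicate 3 and WT replicate 2. The 10 counts of FL replicate 2 stand for about 7 reads (95% Poisson interval 3.90 to 20.0 normalised counts), whereas FL replicate 1 had about 55 reads (42.6 to 73.6), intervals that cover counting error only and not the spread between mice. FL replicate 1 was also the highest FL liver for *Sprr1a* (4370) and the second highest for *Krt23*. *Krt20* and *Krt23* lie on the chromosome of the floxed *Trp53* allele, *Krt20* 29.8 Mb from it, and any part of flanking sequence in their values was not tested.

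*Sprr1a* (chromosome 3, 92483952 to 92485895, minus strand) had 4370, 3225, 2678 and 3479 normalised counts in FL and 5333, 6363 and 7265 in WT livers. The highest FL liver was below the lowest WT liver. FL livers averaged 3438 ± 706 and WT livers 6320 ± 967, so the FL level was 54.4% of the WT level, giving a log2 fold change of -0.89 ± 0.18 (standard error). The 2 livers in which the keratin pair was low stood out less here: WT replicate 2 was the middle WT liver. FL replicate 3 was the lowest liver of all, but it had 0.77 of the median of the other FL livers. Without both livers the log2 fold change was -0.77, and leaving out any single liver kept it between -1.01 and -0.78. In bulk liver a smaller number of expressing cells and less RNA in each of them cannot be told apart, which applies to every level given here.

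The upstream sequences of the 3 genes with lower FL means are shown because p53 binds DNA directly and because AP-1, the FOS and JUN dimer of injured tissue, is a known regulator of *Sprr1a*. They come from RefSeq windows on GRCm38.p6, read 5′ to 3′ on the strand of the gene and stopped short of the annotated transcript. Capitals mark matches to an AP-1 site (TGANTCA) or a TATA box (TATAAA).
Sprr1a (chr3:92485896-92486131, minus strand): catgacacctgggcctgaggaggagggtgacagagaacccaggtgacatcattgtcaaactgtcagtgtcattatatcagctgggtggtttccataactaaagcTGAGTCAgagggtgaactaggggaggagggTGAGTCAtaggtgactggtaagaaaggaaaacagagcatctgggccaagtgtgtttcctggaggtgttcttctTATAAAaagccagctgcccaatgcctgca
Krt20 (chr11:99438154-99438403, minus strand): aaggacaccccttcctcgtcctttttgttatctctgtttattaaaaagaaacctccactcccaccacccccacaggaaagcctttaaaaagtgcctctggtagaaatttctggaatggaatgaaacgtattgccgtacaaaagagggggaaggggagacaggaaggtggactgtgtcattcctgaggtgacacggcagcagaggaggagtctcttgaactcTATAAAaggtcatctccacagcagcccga
Krt23 (chr11:99493138-99493370, minus strand): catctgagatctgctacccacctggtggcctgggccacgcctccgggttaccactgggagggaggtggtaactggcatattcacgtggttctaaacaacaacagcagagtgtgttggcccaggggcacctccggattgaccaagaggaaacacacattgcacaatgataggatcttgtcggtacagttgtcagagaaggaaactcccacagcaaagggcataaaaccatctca
All 5 genes had a RefSeq window, and the motifs were searched on both strands in the 250 bases before the start site. The AP-1 motif occurs 2 times upstream of *Sprr1a*, from -146 to -140 and from -116 to -110 relative to the start site, and was not matched upstream of the 4 keratins. Of 32851 RefSeq windows of this length, 6.75% held an AP-1 match and 0.338% held 2 or more. A TATA box was matched at -43 to -38 in *Sprr1a* and at -29 to -24 in *Krt20*, as in 12.4% of all windows. The p53 half-site consensus, present in 7.13% of windows, was not matched in any of the 5, which says only that these letters are not in these windows.

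The genes around *Sprr1a* in function were described next, from a list of 28 genes of the cornified envelope and its S100 proteins, of which 15 were analysed here and 12 tested. By limma 0 passed the adjusted threshold in either direction, and 3 were lower and 0 higher in FL at an unadjusted p under 0.05. Of all genes tested, 1.6% were lower and 1.59% higher at that p, shares that apply to each gene list. The lists were written with earlier results of these data known, so nothing is read from their counts. *Sprr1a* itself is 1 of these 3, and the others were *S100a6* and *S100a11*, calcium-binding proteins. The list's median log2 fold change was -0.03, against 0.01 for all genes tested, and without FL replicate 3 and WT replicate 2 these medians were -0.34 and -0.01. *S100a6* had 11, 21, 28 and 19 normalised counts in FL and 77, 121 and 32 in WT livers (log2 fold change -1.78, standard error 0.48, limma adjusted p = 0.999). *S100a11* had 66, 89, 72 and 83 in FL and 102, 166 and 118 in WT livers (log2 fold change -0.70, standard error 0.21, adjusted p = 0.999 from limma). For both genes no FL liver reached the lowest WT liver, as in 1.98% of all genes tested.

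Other envelope genes had other profiles. *Sprr1b*, the neighbouring family member, had 46, 35, 19 and 24 in FL and 48, 6 and 74 in WT livers, with WT replicate 2 the lowest of all. *Ivl*, which encodes the envelope scaffold involucrin, had 712, 204, 54 and 483 in FL and 167, 9 and 128 in WT livers, and *Lor*, which encodes loricrin, had 309, 208, 250 and 144 in FL and 165, 90 and 462 in WT livers. In all of these genes the groups overlapped. *Ivl* was lowest of its genotype in FL replicate 3 and WT replicate 2, as the keratin pair was. *S100a10*, the partner of annexin A2, repeated the profile of *Krt8* and *Krt18* most plainly, with 10582, 9654, 3413 and 12567 in FL and 9624, 3512 and 9884 in WT livers. The transglutaminase *Tgm1* (360 to 640 in FL, 359 to 668 in WT livers) and the protease inhibitor *Cstb* (1420 to 2133 and 1387 to 2086) had nearly equal ranges in the genotypes.

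**Figure D3:**
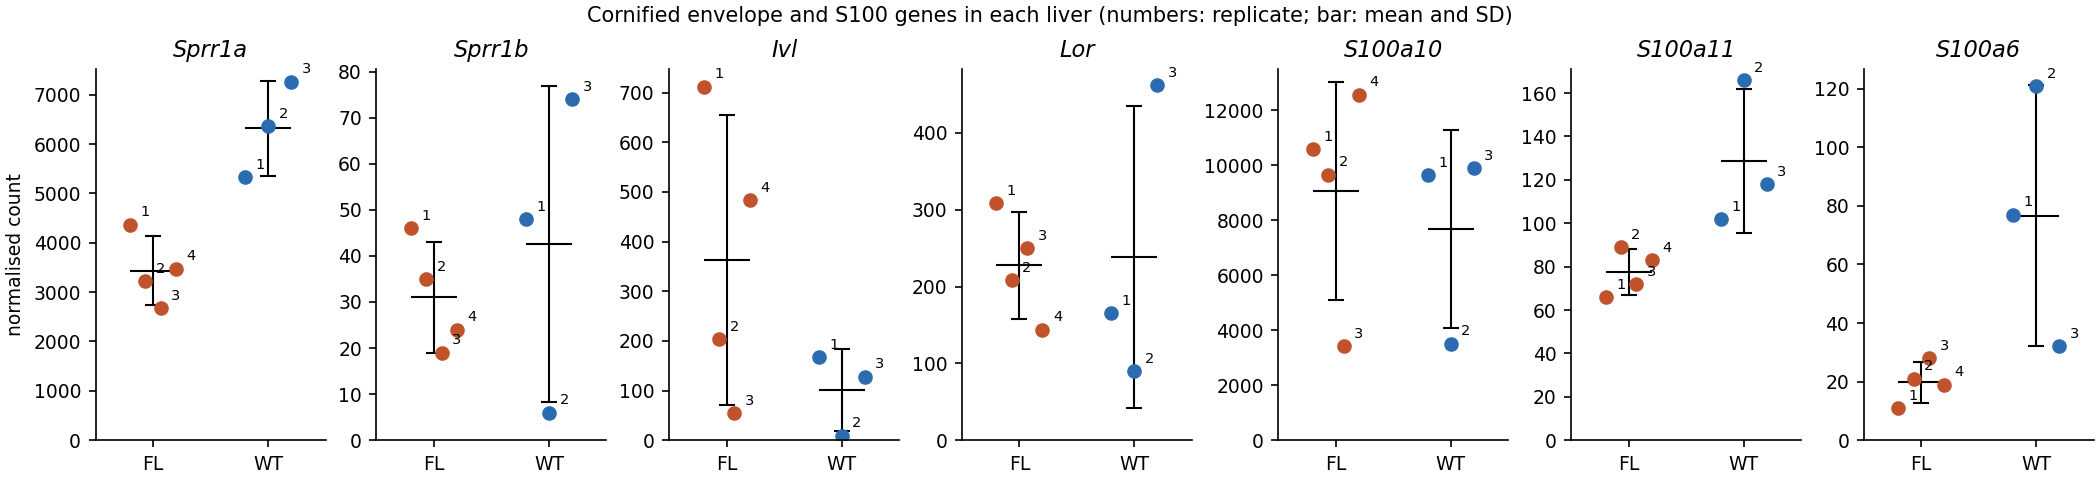
Normalised count (vertical axis, 1 panel per gene) of *Sprr1a* and 6 other genes of the cornified envelope list in FL and WT livers, where points are livers labelled by replicate number and bars give the mean and SD. *Sprr1a*, *S100a11* and *S100a6* have all FL livers below all WT livers, whereas *Sprr1b*, *Ivl*, *Lor* and *S100a10* overlap.

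The table held 14 protein-coding keratin genes, 7 of each type, and 8 had a mean of at least 10. *Krt8* and *Krt18* together held between 97.2% and 99.8% of all keratin counts of a liver. Among the 4 tested keratins besides the members, 3 were lower and 0 higher in FL at an unadjusted p under 0.05 by limma, and 2 of these (*Krt19* and *Krt7*) had no overlap between the groups. Of all genes tested, 1.6% were lower at that p and 1.98% had every FL liver below every WT liver. These keratins were listed with earlier results of these data known, so nothing is read from the counts. *Krt19*, the type I keratin of bile ducts, had 21, 11, 6 and 17 normalised counts in FL and 128, 106 and 26 in WT livers, and WT replicate 3 lay close to the FL livers (log2 fold change -2.41, standard error 0.62, limma adjusted p = 0.999). *Krt7*, the type II keratin of bile ducts, had 14, 8, 2 and 18 in FL and 33, 33 and 28 in WT livers, where the value of 2 rests on about 2 reads (log2 fold change -1.78, standard error 0.62, limma adjusted p = 0.999). *Krt5*, a basal cell keratin, had 6, 4, 6 and 11 in FL and 11, 62 and 17 in WT livers, with its highest value in WT replicate 2. *Krt10*, a keratin of differentiated epidermis, had 24, 39, 21 and 38 in FL and 31, 36 and 33 in WT livers, which overlapped fully. The remaining 6, *Krt14*, *Krt80*, *Krt79*, *Krt90*, *Krt17* and *Krt6a*, were at or below the value of 3 reads in 5 or 6 of the 7 livers, and the highest value among them was 32 for *Krt14* in WT replicate 2.

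**Figure D4:**
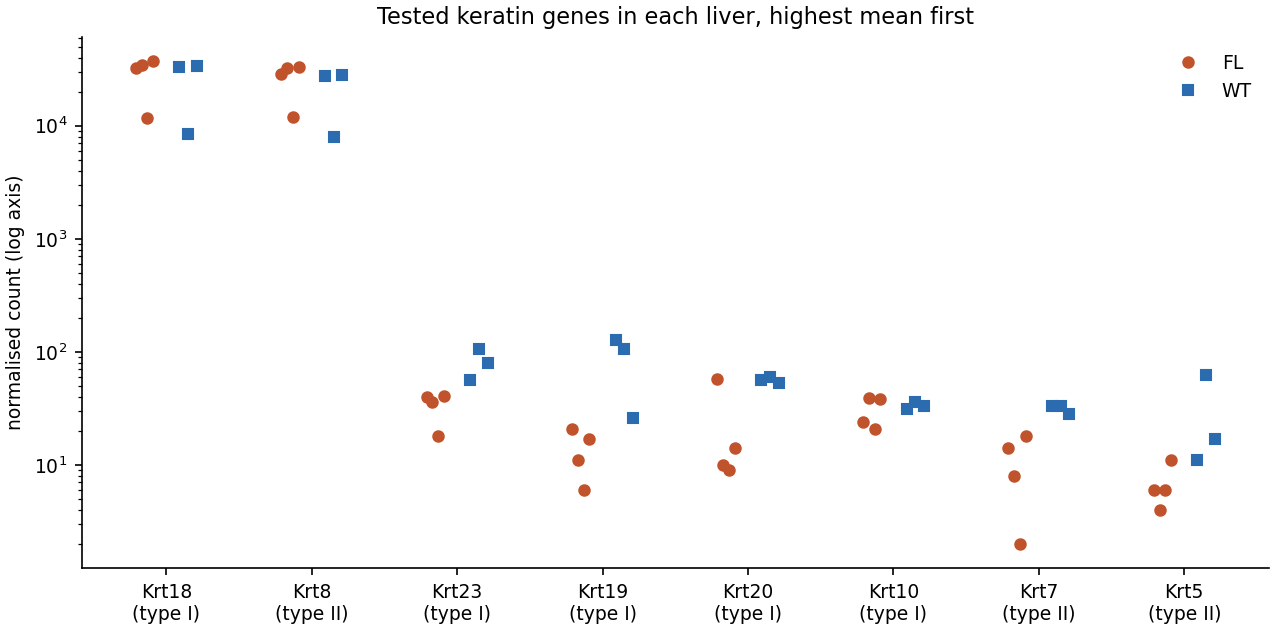
Normalised count (log axis) of the 8 tested keratin genes in FL livers (circles) and WT livers (squares), ordered by mean level. *Krt18* and *Krt8* are at 7901 or more in all livers, whereas no other keratin exceeds 128, and *Krt23*, *Krt19* and *Krt7* have all FL livers below all WT livers.

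Because bile duct, mesothelial and other epithelial cells also make keratins, their markers were set beside these values. Of 13 bile duct markers 11 were tested, and 3 were lower (*Krt19*, *Krt7* and the tight junction gene *Cldn7*) and 1 higher (*Sox9*) in FL at an unadjusted p under 0.05, with a median log2 fold change of -0.61 (-0.22 without FL replicate 3 and WT replicate 2) and 0 past the adjusted threshold by limma. Their summed level ran from 1106 to 1823 in FL and from 1297 to 1984 in WT livers. *Cldn7* had 5, 6, 13 and 11 in FL and 46, 42 and 12 in WT livers, so that it was high in the same 2 WT livers as *Krt19*. *Sox9*, a transcription factor of duct cells that injured hepatocytes can also express, had 763, 596, 297 and 555 in FL and 261, 249 and 204 in WT livers. *Epcam* had 30 to 114 in FL and 95 to 133 in WT livers, and *Cftr*, the chloride channel of duct cells, 0 to 1 and 3 to 5.

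Of 16 markers of gut and stratified epithelium 10 were analysed here and 4 tested, with 2 lower in FL at an unadjusted p under 0.05 (*Krt5* and *Vil1*), 0 past the adjusted threshold by limma and a median log2 fold change of -0.93 (-0.47 without both of those livers). *Vil1*, which encodes the microvillus protein villin, had 3, 3, 6 and 3 in FL and 29, 25 and 7 in WT livers, high in WT replicates 1 and 2 as *Krt19* and *Cldn7* were. The intestinal cadherin *Cdh17* had 0, 4, 0 and 0 in FL and 27, 28 and 4 in WT livers, while the intestinal transcription factors *Cdx1* and *Cdx2* were at 0 in all 4 FL livers and at 14, 7 and 0 and at 5, 8 and 2 in WT livers. *Cdh17*, *Cdx1* and *Cdx2* had means of 9, 3 and 2.14, under the filter, so they rest on few reads and were not tested. They were named after their values had been seen. *Fabp2*, the most abundant gene of this list, had 669, 679, 976 and 642 in FL and 600, 1091 and 472 in WT livers (log2 fold change 0.11), which overlapped. *Lgr5* also overlapped, with 15, 6, 7 and 3 in FL and 4, 15 and 11 in WT livers. The summed level of this list, mostly *Fabp2*, ran from 701 to 1020 in FL and from 550 to 1306 in WT livers. Of 8 mesothelial markers 6 were analysed here and 0 reached a mean of 10, and their sum ran from 12 to 32 in FL and from 15 to 47 in WT livers. The part of duct or other epithelial cells in the values of *Krt20*, *Krt23* and *Sprr1a* was not tested.

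Other parts of the keratin network were compared in the same fit, and 0 genes of these lists passed the adjusted threshold. Of 12 tested genes that anchor keratin to desmosomes and hemidesmosomes, 1 (*Pkp3*, a plakophilin) was lower and 0 higher in FL at an unadjusted p under 0.05, with a median log2 fold change of -0.16 (-0.11 without FL replicate 3 and WT replicate 2). Of these 12 log2 fold changes 9 were negative (10 without both livers), against 6070 of all 12545 genes tested. *Pkp3* had 39, 19, 25 and 19 in FL and 46, 42 and 35 in WT livers. The integrin *Itgb4* had 16, 14, 15 and 4 in FL and 25, 34 and 18 in WT livers (log2 fold change -1.11), without overlap, as in 1.98% of all genes tested. *Itga6* had 113, 118, 65 and 85 in FL and 155, 135 and 113 in WT livers (-0.52). *Dsp*, which encodes desmoplakin, had 1796 ± 266 in FL and 1796 ± 452 in WT livers, and *Plec*, which encodes plectin, had 5518 ± 904 and 6412 ± 514. Of 7 tested genes of other intermediate filaments and lamins, 0 had an unadjusted p under 0.05 and the median was -0.19 (-0.02 without both livers). *Vim*, the filament of mesenchymal cells, was highest in the livers with low *Krt8* and *Krt18*, with 219, 255, 511 and 281 in FL and 276, 1111 and 227 in WT livers.

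Of 13 genes that bind, fold or ubiquitinate keratin aggregates, 0 had an unadjusted p under 0.05, and 12 of the 13 log2 fold changes were positive (median 0.35). Without FL replicate 3 and WT replicate 2, 4 of the 13 were positive (median -0.09), so the sign of the median depended on these livers. In 8 of the 13, FL replicate 3 and WT replicate 2 were the lowest livers of their genotype, against 28.8% of all genes. The aggregate adaptor *Sqstm1* had 78170, 81594, 55731 and 81950 in FL and 86548, 31708 and 84528 in WT livers, and the chaperone *Hspa8* had 22843, 22482, 12787 and 21461 and 23704, 4640 and 22009. *Krt8* and *Krt18* were thus low in the same livers as these genes. Proliferation genes (12 tested, 0 with an unadjusted p under 0.05, median log2 fold change -0.76, or -0.18 without both livers) had the reverse order. Of these 11 were highest of their genotype in both livers, against 28.6% of all genes tested, and their summed level was 909 in FL replicate 3 and 2294 in WT replicate 2 against 483 to 606 in the other 5 livers. Macrophage markers (11 tested, 0 with an unadjusted p under 0.05, median -0.26, or 0.02 without both livers), 9 of them highest in both livers against the same 28.6%, summed to 8844 and 14545 against 5345 to 6773. The part of these differences in the keratin levels was not tested.

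Of 12 actin and tubulin genes, 1 was higher and 0 lower in FL at an unadjusted p under 0.05 (median log2 fold change 0.07, or -0.06 without FL replicate 3 and WT replicate 2). This was *Tubb2a*, a beta tubulin, with 3845, 4004, 3388 and 4370 in FL and 2396, 2391 and 3107 in WT livers, all FL livers above all WT livers. Of 19 tested gp130 cytokine and AP-1 genes, 2 were higher (*Jun* and *Cebpb*) and 0 lower in FL at an unadjusted p under 0.05, with a median of 0.03 with or without these livers. *Jun* had 4136, 3203, 2167 and 2869 in FL and 2453, 1444 and 2092 in WT livers, and *Cebpb*, a factor of the liver injury response, 3958, 4934, 2188 and 3774 and 2330, 1259 and 2690. *Fosl1* had 2825, 2501, 1053 and 2291 in FL and 2920, 415 and 2332 in WT livers, low in the same livers as *Krt8*, and *Atf3* had 2062 ± 457 and 2317 ± 734. The part of any of these factors in the levels of *Sprr1a* was not tested.

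Profiles across the livers were compared by Pearson correlation of log2(normalised count + 1), as a description over 7 livers that share a scaling and include the 2 that stood apart. Livers of both genotypes were pooled, so a genotype difference in the same direction raises the correlation of 2 genes. *Sprr1a*, *Krt23* and *Krt20* were chosen with that difference known, so their correlations with each other are not read as shared regulation. The same limit holds for the genes most like them. *Krt8* and *Krt18* correlated at 0.997 or above with the genes most like them, *Mapre1*, *Ddx49* and *Akt1s1* for *Krt8* and *Akt1s1* and *Minpp1* for *Krt18*, and at 0.995 with *Mapre1* for *Krt18*. Without FL replicate 3 and WT replicate 2 these values were 0.951, 0.845 and 0.894 for *Krt8*, and 0.937, 0.746 and 0.769 for *Krt18*, so they rested in part on those livers. The pair itself correlated at 0.995 over 7 livers and at 0.791 over 5. Those genes varied far less, since *Mapre1*, a microtubule end-binding protein, had 671 in FL replicate 3 and 613 in WT replicate 2 against 852 to 914 elsewhere. *Sprr1a* was most like *Ccn4* (0.982), *Ugt2b35* (0.959) and the bile canalicular pump *Abcc2* (0.958), and these values were 0.986, 0.975 and 0.920 over the 5 livers without FL replicate 3 and WT replicate 2. *Ccn4*, a matricellular protein gene, had 75, 51, 32 and 58 in FL and 86, 109 and 154 in WT livers. *Krt23* was most like *Hpgd* (0.985), *Lect2* (0.948) and *Sdcbp2* (0.938), and *Krt20* most like *Ptprk* (0.985), *Tmem206* (0.979) and *Xpo1* (0.953). Over the 5 livers these were 0.927, 0.898 and 0.903 for *Krt23* and 0.999, 0.979 and 0.938 for *Krt20*. *Ptprk*, a receptor tyrosine phosphatase, ranged only from 950 to 1147 over all livers. Among the members, *Sprr1a* correlated with *Krt23* at 0.928 over 7 livers and 0.957 over 5, and with *Krt20* at 0.893 and 0.818. With *Krt8* its value was -0.105 over 7 livers and -0.850 over 5, and that of *Krt20* with *Krt8* was -0.094 and -0.940, so these depended on the 2 livers.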

How the data were processed

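Liver RNA of 4 FL and 3 WT mice was sequenced as stranded, paired 36-base reads. The authors aligned the reads with Tophat 2.0.13 and Bowtie 2.2.6.0, counted reads per gene (featureCounts and HTSeq are both listed) and scaled them in DESeq2. The deposited values are treated as a score, being scaled counts that the authors had rounded to whole numbers, so no count model was fitted. The sources call the mouse build GRCh38 release 75, and the coordinates given here are those of GENCODE release 21 on GRCm38, matched through Ensembl identifiers. Of 14988 rows, 120 identifiers were repeated with identical values and were kept once, and 14839 of 14851 identifiers had a symbol. Every liver column was used.

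Genotypes were compared by limma 3.58.1 in R 4.3.3 (mean-variance trend, pseudocount 1, mean of at least 10) and Benjamini-Hochberg adjustment over all 12545 genes tested. *Trp53* was also compared by an exact two-sided permutation test. The fit was tested on simulated data whose spread came from the 5 livers without FL replicate 3 and WT replicate 2. That simulation does not show how the fit performs at the spread of all 7 livers. Reads per liver were estimated from which whole numbers occur among low values. Motifs and shared 36-base stretches were counted with Python 3.11.15 in RefSeq windows and GENCODE transcripts. The p53 half-site was searched by its consensus.

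The 5 genes and the 12 gene lists were chosen with earlier results of these data known. The rule named *Trp53*, the members, the 5 other keratins of highest mean and any with an unadjusted p under 0.05, up to 4 genes of smallest p per list, or of highest mean for markers, and the 3 genes most like each member. *Lor*, *Sprr1b*, *S100a10*, *Tgm1*, *Cstb*, *Cdh17*, *Cdx1*, *Cdx2*, *Cftr*, *Dsp*, *Sqstm1*, *Fosl1*, *Atf3*, the keratins under the filter and 5 genes called without WT replicate 3 were named after their values had been seen. The alternatives were pseudocounts of 0.5 and 5, no filter or a mean of 50, quantile and median scaling, robust hyperparameters, no trend, a replicate block, and fits without 1 liver or without FL replicate 3 and WT replicate 2.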

Additional observations from a re-analysis of the deposited data

Results flagged for a closer look

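For 21 results, the 4 FL livers were searched for 1 that lay far from the rest by Dixon's criterion at 95%. It found 2, and chance marks about 1 in 20. FL replicate 1 had 57 normalised counts of *Krt20*, whereas the remaining FL livers had 9 to 14. FL replicate 3 had a summed level of gut and stratified epithelium markers of 1020, mostly *Fabp2* (976), whereas the remaining FL livers had 701 to 735.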

How the results depend on the processing

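The count of genes with an adjusted p under 0.05 was 2, and it was 0 with a pseudocount of 5, a filter at a mean of 50, no trend or the replicate block, 1 with quantile normalisation, and 6 without both FL replicate 3 and WT replicate 2, the only setting in which a listed gene passed (1, *Sox9*). Unadjusted p-values under 0.05 numbered 404, 316, 465 and 110 in those that gave 0. Fits without 1 liver gave 0 to 5 genes: 5 without WT replicate 3 (*Clca1*, *Dmbt1*, *Fcgbp*, *Lypd8* and *Pla2g2a*, genes known from intestinal epithelium), 1 without FL replicate 3 and 0 otherwise, with 246 to 747 unadjusted. *Trp53* kept its direction under every alternative, and it lost its call with a pseudocount of 5 (log2 fold change -2.44), the filter at 50 (-2.47), no trend (-2.47) and the replicate block (-2.35, adjusted p = 1.0), while without 1 liver it ran from -2.68 to -2.35 and passed only without FL replicate 3 (adjusted p 0.00488, otherwise 0.0572 to 0.316). The members passed in 0 of 17 alternatives. *Sprr1a* ran from -1.01 to -0.77, *Krt23* from -1.49 to -0.77 and *Krt20* from -2.28 to -1.32, whereas *Krt8* (-0.16 to 0.79) and *Krt18* (-0.34 to 0.72) changed sign only without WT replicate 2. *Krt20*, under the filter, had no value at a mean of 50. The causes were not tested. Replicate numbers are shared by the genotypes without any source calling them pairs: deviations of same-numbered livers correlated at 0.438, -0.483 and -0.661, and 2 of 6 livers correlated best with their own number. The replicate block left *Sprr1a*, *Krt23* and *Krt20* negative. Depth limits *Krt20*, *Krt7* and *Krt19*, which rest on 2 to 20 reads in some FL livers.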
